A study of Mus musculus with 32 samples.

Results

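The genes described here are 54 genes of proliferation and the cell cycle, chosen by name from their known roles, with earlier results of these data known. Arrays of mouse cerebrum and spinal cord measured 50 of them, out of 19505 genes tested. By role, 26 measured genes act in mitosis or its approach, 20 act in S phase or its start, 1 is a D cyclin (Ccnd2) and 3 are inhibitors of cyclin-dependent kinases (Cdkn1a, Cdkn1b and Cdkn2c). Ccnb1, Foxm1, Mcm7 and Ccnd1 are not analysed here. Each measured gene had a single probe.

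The 32 arrays came from male wild-type C57BL/6J mice aged 6 to 12 weeks, in 8 groups of 4. Spinal cord and cerebrum were each sampled as control and at 1, 3 and 7 days after photothrombosis, a method that clots vessels by lighting up a dye in the blood, here over the cord (scPT) or the cerebrum (cPT). The labels do not say whether controls had surgery, how far from the lesion the tissue was cut, or that each array came from a separate animal, so the spread behind each p-value is that between samples and may be technical. Sample titles run in number ranges that follow the groups, except that the controls of both tissues share a range. Cord day 7, the group with the highest mitosis medians below, alone has titles that start with P, and all other titles start with G. Should these mark batches, the effect of a batch and of its group cannot be told apart. The number of arrays limits the precision.

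A dividing cell copies its DNA in S phase and separates the copies in mitosis. D and E cyclins with their kinases release E2F transcription factors, which turn on genes for replication origins, nucleotides and polymerases, and mitotic genes follow later through the CHR element, bound by the MuvB complexes. In adult brain and cord few cells divide, and after injury microglia, glial precursors, endothelial cells, fibroblasts and infiltrating leukocytes can all enter the cycle. Whole-tissue RNA does not say which cells carry these transcripts, and fewer cells of a type and less RNA per cell cannot be told apart.

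The promoters of the mitosis and S phase genes differed in the elements they held, a property that played no part in their choice. RefSeq promoters of GRCm38.p6, 250 bases before to 50 after the start, were matched for 21 measured mitosis genes, 16 measured S phase genes and 15691 genes of the array. A CHR element (TTTGAA or TTCGAA, either strand) stood in 17 of the 21 mitosis promoters (81.0%), in 2 of the 16 S phase promoters (12.5%) and in 17.4% of all promoters. An E2F element (TTCCCGC or TTCGCGC, and also TTGCCGC or TTGGCGC, either strand) stood in 2 of the 21 mitosis promoters (9.52%), those of Cdk1 and Mki67, in 10 of the 16 S phase promoters (62.5%) and in 12.6% of all promoters. CCAAT on either strand, the NF-Y motif, stood in 85.7% of mitosis promoters, 62.5% of S phase promoters and 38.8% of all promoters. Of promoters with a CHR element, all 17 of mitosis genes also held CCAAT in the same 300-base window, at any distance from it. So did both of the 2 S phase promoters with a CHR element, and 1145 of the 2735 over all genes. Within these genes an E2F match overlapped CCAAT in E2f8, and a CHR match overlapped it in Cdca8. A match is a run of letters and not a measured site. The plot of element shares shows the contrast.

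**Figure D1:**
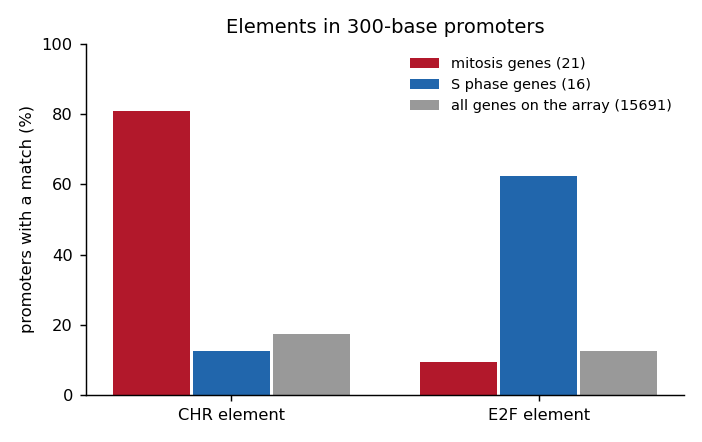
Percent of 300-base RefSeq promoters with at least 1 match to a CHR or an E2F element, as bars for mitosis genes (21), S phase genes (16) and all genes of the array (15691). CHR stood in 81.0% of mitosis promoters and E2F in 62.5% of S phase promoters, against 17.4% and 12.6% of all.

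Of the mitosis genes, Cdk1, Top2a and Mki67 are shown, since the later results turn on them. Their upstream bases, from RefSeq GRCm38.p6 and written 5′ to 3′ along the gene, end at the annotated gene boundary, with CHR elements in capitals. Cdk1 lies at chr10:69352913-69353162 (minus strand), Top2a at chr11:99024200-99024439 (minus strand) and Mki67 at chr7:135716451-135716629 (minus strand).
Cdk1: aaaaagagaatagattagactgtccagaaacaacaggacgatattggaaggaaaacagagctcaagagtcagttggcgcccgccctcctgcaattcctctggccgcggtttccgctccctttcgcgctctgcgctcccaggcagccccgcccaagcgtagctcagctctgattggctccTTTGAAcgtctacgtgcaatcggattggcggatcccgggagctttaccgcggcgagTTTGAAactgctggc
Top2a: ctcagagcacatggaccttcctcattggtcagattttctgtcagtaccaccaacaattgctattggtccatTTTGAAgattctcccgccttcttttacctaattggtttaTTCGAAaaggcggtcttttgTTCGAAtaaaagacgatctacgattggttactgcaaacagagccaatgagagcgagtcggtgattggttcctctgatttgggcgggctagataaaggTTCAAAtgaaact
Mki67: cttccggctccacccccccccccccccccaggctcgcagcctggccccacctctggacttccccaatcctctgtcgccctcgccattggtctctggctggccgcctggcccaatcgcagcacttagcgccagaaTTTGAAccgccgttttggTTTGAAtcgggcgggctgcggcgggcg
Cdk1 and Mki67 hold 2 CHR matches each in these stretches and Top2a holds 4.

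Of the S phase genes, Mcm5 and Mcm6, subunits of the helicase loaded at origins, and Rrm1, the large subunit of ribonucleotide reductase, are shown for contrast, with E2F elements in capitals. Both Mcm genes rose in the cord by day 1, in calls lost without cord control 3 or day 1 replicate 1, and Rrm1 had no call there. Matches and day 1 calls did not go together throughout. Pola1 holds E2F matches and had no call, while Pcna, Mcm2 and Tk1 hold none in their windows and rose. A link between matches and changes was not tested. Mcm5 lies at chr8:75109259-75109467 (plus strand), Mcm6 at chr1:128359706-128359955 (minus strand) and Rrm1 at chr7:102441445-102441694 (plus strand).
Mcm5: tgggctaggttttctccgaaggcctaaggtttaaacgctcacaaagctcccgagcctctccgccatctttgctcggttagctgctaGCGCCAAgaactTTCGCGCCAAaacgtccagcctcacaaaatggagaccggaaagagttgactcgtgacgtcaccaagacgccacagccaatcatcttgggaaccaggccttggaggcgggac
Mcm6: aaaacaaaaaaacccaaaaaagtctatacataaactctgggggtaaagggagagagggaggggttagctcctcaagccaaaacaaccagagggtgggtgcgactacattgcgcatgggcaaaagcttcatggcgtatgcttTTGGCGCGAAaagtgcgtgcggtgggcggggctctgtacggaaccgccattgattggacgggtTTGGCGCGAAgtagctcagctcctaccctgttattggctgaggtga
Rrm1: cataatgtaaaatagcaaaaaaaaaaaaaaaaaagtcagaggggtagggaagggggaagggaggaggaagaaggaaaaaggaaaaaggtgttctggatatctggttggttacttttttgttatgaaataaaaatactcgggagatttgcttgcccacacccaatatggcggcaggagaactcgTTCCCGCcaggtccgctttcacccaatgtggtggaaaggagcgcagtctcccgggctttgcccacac
Mcm5 holds 3 E2F matches here, Mcm6 holds 4 and Rrm1 holds 1, and matches within Mcm5 and Mcm6 overlap each other.

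Some arrays stood apart. Cord day 3 replicate 1 had the lowest limma array weight (0.225), with weights from 0.516 to 1.47 in the other 3 arrays of its group. Its median over 11 microglia markers was -0.75, against 0.92 to 1.30 in the other 3. It was also lowest in markers of oligodendrocyte precursors (-1.16, against 0.35 to 0.65) and of astrocytes (-0.62, against 0.54 to 0.68). Cord control 2 had the next lowest array weight (0.491). Its median over fibroblast markers was 1.40, against -0.65, -0.58 and 0.35 in the other cord controls. Markers of skeletal muscle stood high in cord controls 1 to 3. The median over 8 muscle markers was 4.13, 3.09, 1.15 and 0.21 in cord controls 1 to 4, against -0.25 to -0.11 in cerebral controls. In injured cord arrays it ran from -0.033 to 0.91, a range that includes cord control 4. Regional genes followed the labels, with Hoxc8, a homeobox gene of the trunk, at 2.91 to 3.69 in cord and -2.77 to -2.55 in cerebral controls. Tbr1, a transcription factor of cortical neurons, was at -2.27 to -1.59 in cord and 2.34 to 2.87 in cerebral controls. All values are on the deposited log2 scale, where 0 is the probe's median over the control and day 1 arrays. They give changes of a gene and not its level, so genes cannot be ranked by abundance. Day 3 and day 7 arrays were centred apart per probe, and their offset was rebuilt against the 8 controls.

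The injured cord was compared with control cord to ask when the cycle genes changed. On day 1, 10 of 20 S phase genes and 1 of 26 mitosis genes rose, where 15.8% of all genes did. The S phase rise did not extend to 40 other S phase genes, of which 5 rose and 4 fell that day. On day 3, 17 of the 20 S phase and 23 of the 26 mitosis genes rose, where 11.2% of all genes did. On day 7 it was 16 and 25, where 16.2% rose, with the larger changes in the mitosis genes. Mki67, the proliferation marker Ki-67, had changed by a log2 difference of 6.02 ± 0.36 by day 7 (SE, n = 4 per group, a 65.1-fold rise, limma adjusted p = 1.22e-14), and Pcna, the sliding clamp of the DNA polymerases, by 2.14 ± 0.16 (4.41-fold, limma adjusted p = 2.22e-12).

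The median over the 26 mitosis genes in each cord array was -0.014, -0.036, -0.073 and -0.14 in controls, 0.068, -0.15, -0.12 and 0.007 on day 1, 0.65, 1.32, 1.91 and 1.89 on day 3, and 2.35, 2.30, 2.0 and 2.14 on day 7. Day 1 arrays lay on both sides of the controls and all later arrays lay above them. The median over the 20 S phase genes was -0.092, -0.20, -0.14 and -0.13 in control cord, 0.43, 0.044, 0.081 and 0.12 on day 1, 0.76, 0.69, 1.27 and 1.22 on day 3, and 1.29, 1.25, 1.11 and 1.05 on day 7. Here every injured array lay above every control. The difference of the 2 medians, mitosis minus S phase, was -0.36, -0.20, -0.20 and -0.11 on day 1, all below the controls, which ran from -0.004 to 0.16. The value was -0.10, 0.63, 0.64 and 0.67 on day 3 and 0.89 to 1.08 on day 7. Cord day 3 replicate 1, the array low in microglia, precursor and astrocyte markers, was the negative one of its group.

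In the injured cerebrum both medians were above control from day 1 in every array. The mitosis median was -0.19 to -0.12 in cerebral controls, 0.82, 0.67, 0.50 and 0.30 on day 1, 0.79, 0.69, 0.66 and 0.83 on day 3, and 0.57, 0.44, 0.49 and 0.32 on day 7. The S phase median was -0.31 to -0.17 in cerebral controls, 0.43, 0.45, 0.27 and 0.053 on day 1, 0.28, 0.22, 0.17 and 0.39 on day 3, and 0.14, 0.16, 0.021 and 0.037 on day 7. Mitosis minus S phase was positive in all 12 injured cerebral arrays, from 0.22 to 0.51, and 0.022 to 0.18 in cerebral controls.

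**Figure D2:**
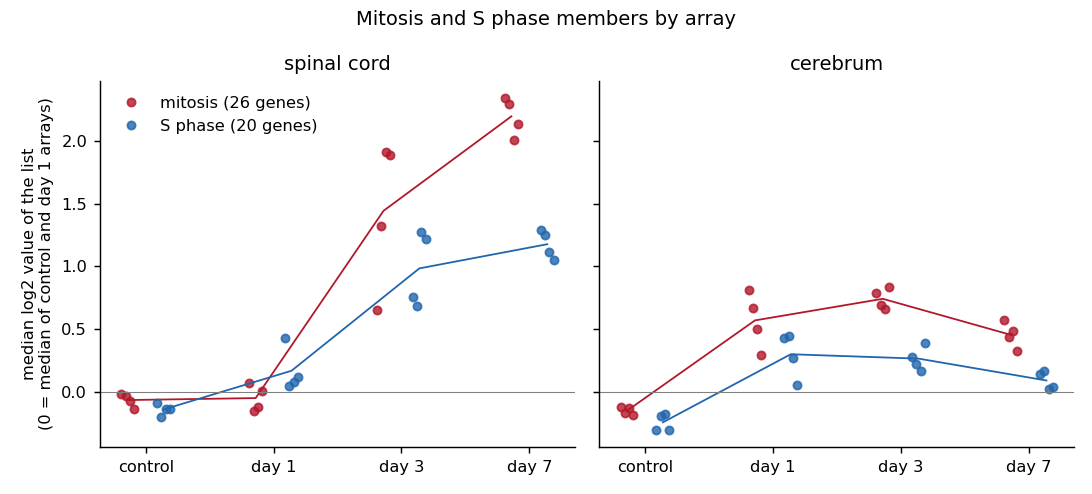
Median log2 value over the 26 mitosis genes (red) and the 20 S phase genes (blue) in each array, with lines through the group means, for spinal cord (left) and cerebrum (right) from control to day 7. Cord mitosis medians are -0.15 to 0.068 on day 1 and 2.0 to 2.35 on day 7, while in the cerebrum they are 0.30 to 0.82 on day 1 and 0.32 to 0.57 on day 7.

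On day 1 after cord photothrombosis, 14 of the 50 genes rose and 2 fell (limma, Benjamini-Hochberg adjusted p under 0.05), where 15.8% of all genes tested rose and 16.1% fell. The S phase genes gave 10 of the 14 rises, with a median log2 difference of 0.33, against 0.023 over all genes. The mitosis genes gave 1, Aurka, a spindle pole kinase (0.35 ± 0.12, limma adjusted p = 0.0315), with a median of 0.026. That call is lost without cord day 1 replicate 3 or 4 or cord control 4 (limma adjusted p from 0.0615 to 0.176).

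Of the 10 S phase genes that rose, 7 act in origin licensing, the step that loads the helicase onto DNA, a grouping made after the values were seen. They are the helicase subunits Mcm2, Mcm3, Mcm4, Mcm5 and Mcm6, and the loading factors Cdc6 and Cdt1, with log2 differences from 0.50 to 0.76. Pcna rose by 0.73 ± 0.16 (limma adjusted p = 0.000525), Uhrf1, which brings DNA methyltransferase to new DNA, by 0.80 ± 0.16 (limma adjusted p = 0.000325), and Tk1, thymidine kinase, by 0.27 ± 0.10 (limma adjusted p = 0.0491). Tk1 supplies nucleotides, and the other genes of nucleotide supply and the polymerase subunits had no call, with Rrm1 at -0.26, Rrm2 at 0.11, Tyms at 0.11, Pole at 0.35 and Pola1 at -0.12. Ccne2, a cyclin of S phase entry, fell by 0.52 (SE 0.16, limma adjusted p = 0.0121). Mcm5 and Mcm6 lose their calls without cord control 3 or day 1 replicate 1, and Ccne2 without day 1 replicate 2 or 3 (limma adjusted p from 0.0512 to 0.0743). Cdc6 loses its call without cord control 1 or 3 or day 1 replicate 1 or 4, and Tk1 without any array except day 1 replicate 3 (limma adjusted p from 0.0598 to 0.196).

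Mcm5 stood at -0.10, -0.49, -0.69 and -0.30 in control cord, 0.51, -0.20, 0.26 and 0.26 on day 1, 0.57, 0.72, 1.45 and 1.19 on day 3, and 1.27, 1.25, 1.29 and 1.16 on day 7. The day 1 array at -0.20 lay within the controls and all later arrays lay above. The day 1 difference was 0.60 ± 0.18 (limma adjusted p = 0.0112, or 0.0512 without cord day 1 replicate 1 and 0.0513 without cord control 3), and it was 1.38 ± 0.18 on day 3 and 1.64 ± 0.18 on day 7. Pcna stood at -0.46, -0.36, -0.30 and -0.65 in control cord, 0.71, 0.34, 0.20 and -0.075 on day 1, 1.15, 0.68, 1.48 and 0.91 on day 3, and 1.86, 1.87, 1.62 and 1.46 on day 7. All 12 injured arrays were above all controls.

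The CDK inhibitors and Ccnd2 also moved on day 1 in the cord. Cdkn1a encodes p21, an inhibitor induced by p53 and by stress. It stood at 0.14, 1.17, 0.71 and 0.19 in control cord, 1.94, 3.19, 3.39 and 2.58 on day 1, 3.43, 1.22, 1.69 and 1.44 on day 3, and 1.28, 1.65, 1.54 and 1.86 on day 7. The highest day 3 value belonged to replicate 1, the array that stood apart. Cdkn1a rose by 2.22 ± 0.43 on day 1 (limma adjusted p = 0.000223) and by 1.39 ± 0.43 on day 3 (0.0224). The day 3 call is lost without cord day 3 replicate 1 (0.90, adjusted p = 0.152) or cord control 1 or 4 (adjusted p = 0.072 and 0.0641). On day 7 Cdkn1a was at 1.03 ± 0.43 (limma adjusted p = 0.0815).

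Cdkn1b, which encodes the quiescence inhibitor p27, stood at 0.11, 0.19, 0.13 and 0.37 in control cord, and at -0.15, -0.21, -0.30 and -0.12 on day 1, below all controls. It fell by 0.39 on day 1 (SE 0.12, limma adjusted p = 0.0102), and had no call on day 3 (-0.16, 0.27, 0.35 and -0.21) or day 7 (-0.18, -0.10, 0.033 and 0.40). Cdkn2c encodes p18, an inhibitor of the kinases that D cyclins bind. It rose by 0.43 ± 0.16 on day 1, 0.80 ± 0.16 on day 3 and 1.96 ± 0.16 on day 7 (limma adjusted p = 0.0442, 0.00162 and 6.61e-11), and its day 1 call is lost without cord control 1 or 4 or any day 1 array (adjusted p from 0.0667 to 0.166).

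Ccnd2, a D cyclin that drives G1, stood at -0.54, -0.67, -1.0 and -1.13 in control cord, -0.036, -0.14, 0.038 and -0.39 on day 1, -0.47, -0.18, 0.42 and 0.11 on day 3, and 0.24, 0.31, 0.35 and 0.12 on day 7. Every injured cord array was above every control. It rose by 0.70 ± 0.16, 0.81 ± 0.16 and 1.09 ± 0.16 on days 1, 3 and 7 (limma adjusted p = 0.00144, 0.0258 and 0.000295). The day 3 call is lost without cord day 3 replicate 3 or 4 or cord control 3 or 4 (adjusted p from 0.0639 to 0.14). Its offset range on day 3 was the widest of these genes, with a half-width of 0.219.

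Other genes of the same steps were taken from lists written for this description. Of 18 measured genes of the p53 response and CDK inhibition, 10 rose and 2 fell on cord day 1, led by the stress genes Gadd45b (2.29 ± 0.41), Gadd45g (2.24 ± 0.24) and Gadd45a (1.93 ± 0.29). Of 13 other genes of G1 control, 5 rose and 1 fell. The largest change was in Myc, a transcription factor of cell growth (2.91 ± 0.31, limma adjusted p = 3.78e-08). Of 59 other mitosis genes 1 rose and 1 fell, and the one that fell was Anln, a protein of the cleavage furrow (-0.83 ± 0.17). Of 40 other S phase genes 5 rose and 4 fell, where 15.8% and 16.1% of all genes did, and their median of 0.024 lay at that of all genes (0.023). The largest changes were in Gins1 (1.04 ± 0.19), part of the active helicase, and Rfc2 (-0.50 ± 0.13), part of the clamp loader.

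Several lists of cell type markers held calls on cord day 1, where 15.8% of all genes rose and 16.1% fell. Of 11 measured microglia markers 2 rose and 3 fell (median -0.21, arrays -0.40 to 0.053 on day 1 and -0.21 to 0.012 in controls). Of 8 markers of oligodendrocyte precursors, 5 fell and 0 rose (median -0.58), and of 12 monocyte and macrophage markers 5 rose (median 0.56). Of 10 endothelial markers 6 rose and 2 fell (median 0.38), of 10 astrocyte markers 5 rose and 2 fell (median 0.33), and of 10 fibroblast markers 4 rose (median 0.84). The fibroblast array medians overlapped, at -0.056 to 1.51 on day 1 and -0.65 to 1.40 in controls. Of 9 lymphocyte markers 3 rose and 0 fell (median 0.026), and of 9 markers of neural progenitors 3 rose and 3 fell (median 0.25). All 8 muscle markers fell. Their part in the cycle gene results was not tested. With cord controls 3 and 4 alone, chosen after seeing the data for their lower muscle markers, 11 cycle genes rose and 2 fell on day 1, and the medians were 0.087 for mitosis and 0.34 for S phase genes.

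On day 3 in the cord, 43 of the 50 genes rose and 0 fell by limma (0 also fell at an unadjusted p under 0.05), where 11.2% of all genes rose and 11.2% fell. The rises comprised 23 mitosis genes, with a median of 1.52, and 17 S phase genes, with a median of 1.12, against -0.083 over all genes. The 7 with no call were Cenpf, Kif20a, Melk, Ccne1, Tk1, E2f1 and Cdkn1b. Without cord day 3 replicate 1 the count was again 43, and the medians were 1.79 for mitosis and 1.20 for S phase. With cord controls 3 and 4 alone the count was 42.

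Mki67 stood at 0.0019, 0.10, -0.0019 and -0.32 in control cord, 0.57, -0.31, -0.26 and -0.29 on day 1, 2.68, 3.90, 5.23 and 5.28 on day 3, and 6.32, 6.2, 5.63 and 5.73 on day 7. The day 3 arrays were spread widely, with replicate 1 lowest, and did not reach the day 7 range. The difference was 4.33 ± 0.36 on day 3 (limma adjusted p = 2.31e-10) and 1.70 ± 0.36 between day 7 and day 3 (limma adjusted p = 0.00455). Cdk1, the kinase that starts mitosis, stood at -0.046, -0.038, -0.034 and -0.37 in control cord, 0.97, -0.17, -0.25 and 0.49 on day 1, 2.32, 3.14, 4.58 and 4.25 on day 3, and 5.64, 5.60, 5.17 and 5.13 on day 7. It followed the same order, with differences of 0.38 ± 0.35, 3.70 ± 0.35 and 5.50 ± 0.35 from control (limma adjusted p = 0.438, 4.24e-09 and 7.67e-14).

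Pbk, a mitotic kinase, overlapped between day 3 and day 7. The gene stood at 0.06, 0.69, -0.52 and -0.73 in control cord, 0.72, -0.67, -0.53 and -0.06 on day 1, 3.58, 4.52, 5.15 and 5.60 on day 3, and 5.36, 5.23, 4.88 and 4.64 on day 7. The difference was 4.84 ± 0.38 on day 3 and 5.16 ± 0.38 on day 7 (limma adjusted p = 7.18e-11 and 1.5e-12), and day 7 against day 3 had no call (0.32 ± 0.38). Top2a, the topoisomerase that untangles sister DNA, stood at 0.076, -0.32, -0.46 and -0.47 in control cord, 0.046, 0.069, -0.61 and -0.046 on day 1, 0.82, 1.56, 2.27 and 2.12 on day 3, and 2.91, 2.80, 2.77 and 2.70 on day 7. The day 7 arrays lay above all day 3 arrays, by 1.10 ± 0.22 (limma adjusted p = 0.0076, or 0.0709 without cord day 3 replicate 1). Ccna2, cyclin A2 of S phase and early mitosis, stood at 0.35, -0.10, -0.08 and 0.20 in control cord, 0.26, -0.20, -0.15 and -0.13 on day 1, 0.80, 1.31, 2.33 and 2.25 on day 3, and 2.67, 2.44, 2.15 and 2.17 on day 7. Its day 1 arrays overlapped the controls and its day 3 arrays overlapped those of day 7.

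Among the other mitosis genes on cord day 3, Plk1, the polo-like kinase, rose by 2.59 ± 0.27, Bub1, a checkpoint kinase at kinetochores, by 2.26 ± 0.25, and Ube2c, a ubiquitin enzyme of the anaphase-promoting complex, by 2.23 ± 0.27. Nusap1 and Tpx2, which bind spindle microtubules, rose by 1.97 ± 0.19 and 1.93 ± 0.15, and Ccnb2, a B cyclin, by 1.84 ± 0.21. Among the smallest rises were those of Ttk, a checkpoint kinase (0.52 ± 0.14), lost without cord control 2 or day 3 replicate 3 or 4 (adjusted p from 0.0816 to 0.101), and Aurka (0.56 ± 0.12), lost without cord control 4 (0.0502). Limma adjusted p for these 8 genes ran from 7.06e-11 to 0.0207. Of the S phase genes, E2f8, a repressor of E2F targets, rose most at 2.22 ± 0.26, ahead of Uhrf1 (1.70 ± 0.16) and Rrm1 (1.61 ± 0.21). E2f8 stood at -0.08, 0.33, 0.40 and 0.08 in control cord, 0.13, -0.49, -0.24 and -0.80 on day 1, 1.46, 1.92, 3.17 and 3.07 on day 3, and 3.45, 3.34, 3.06 and 2.80 on day 7. Day 1 replicates 2, 3 and 4 were below all controls, with no call (-0.54 ± 0.26, limma adjusted p = 0.121).

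Rrm2, the small subunit of ribonucleotide reductase, stood at 0.059, -0.26, 0.0083 and -0.15 in control cord, 0.14, -0.0083, -0.057 and 0.022 on day 1, 0.37, 0.40, 1.07 and 1.34 on day 3, and 1.26, 1.07, 1.27 and 1.30 on day 7. Its day 1 arrays overlapped the controls and all later arrays were above them, by day 3 (0.88 ± 0.16, limma adjusted p = 0.000308). Ccne2, which had fallen on day 1, rose on day 3 by 0.79 ± 0.16 (limma adjusted p = 0.00126) and had no call on day 7 (0.12 ± 0.16).

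On day 7 in the cord 43 genes rose and 1 fell, where 16.2% of all genes rose and 18.3% fell. Among mitosis genes 25 of 26 rose (median 2.26) and Melk, a kinase of mitotic cells, had no call (0.42 ± 0.14, limma adjusted p = 0.082). Among S phase genes 16 of 20 rose (median 1.44), and the median over all genes was -0.096. After Mki67, Cdk1 and Pbk the largest rises were those of Plk1 (3.75 ± 0.27), Top2a (3.09 ± 0.22), Ube2c (2.86 ± 0.27) and Cdc20, the activator of the anaphase-promoting complex (2.70 ± 0.18). Of the S phase genes E2f8 (2.98 ± 0.26), Mcm3 (2.34 ± 0.20) and Mcm6 (2.14 ± 0.18) rose most, beside Pcna. E2f1, an activator of S phase genes, rose by 0.49 ± 0.14 (limma adjusted p = 0.0337), a call lost without cord control 3 or day 7 replicate 2, 3 or 4 (adjusted p from 0.0532 to 0.183). With cord controls 3 and 4 alone 44 genes rose and 1 fell.

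Ccne1, cyclin E1 of S phase entry, went the other way. Its values were 0.58, 0.022, 0.39 and 0.13 in control cord, -0.018, -0.28, 0.018 and 0.11 on day 1, 0.32, 0.12, 0.009 and 0.25 on day 3, and -0.35, -0.90, -0.84 and -0.75 on day 7. All day 7 arrays were below all others. By day 7 it fell by 0.99 (SE 0.13, limma adjusted p = 1.36e-06).

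**Figure D3:**
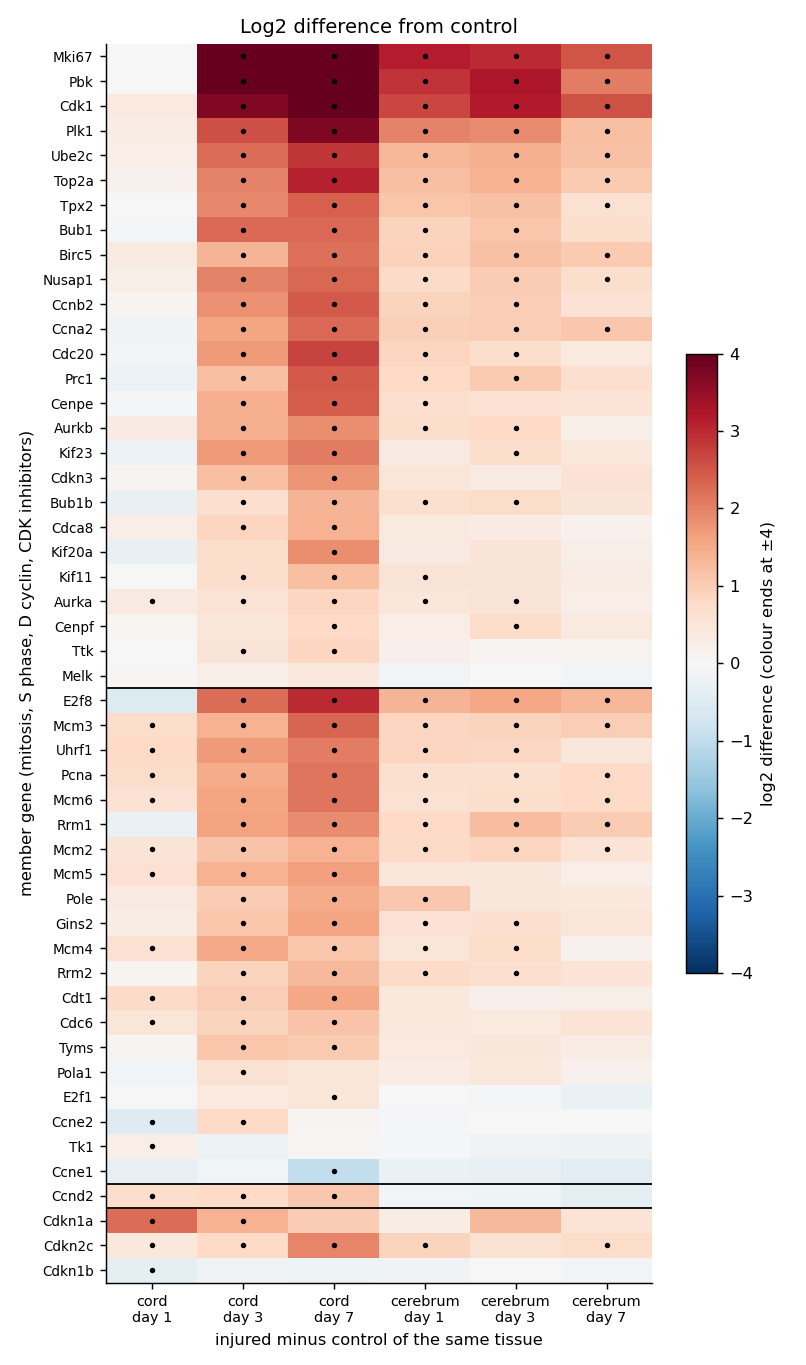
Log2 difference of each injured group from the control of its own tissue for the 50 genes, by role and then by mean change, with cord columns left of cerebrum columns, colour from blue (lower) to red (higher) and a dot where limma's adjusted p is under 0.05. In the cord day 1 column the mitosis genes hold 1 dot and the S phase genes 11, and from day 3 on nearly all genes of both sets are red.

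Day 7 was set against day 3 within the cord. Of the 50 genes 11 were higher on day 7 and 1 was lower, where 4.32% of all genes rose and 3.67% fell. Mitosis genes gave 9 of the rises, led by Cdk1 (1.81 ± 0.35), Mki67, Prc1, a crosslinker of the central spindle (1.25 ± 0.19), Plk1 (1.16 ± 0.27) and Kif20a, a kinesin of cytokinesis (1.14 ± 0.17). The other rises were Mcm3 (0.93 ± 0.20) and Cdkn2c (1.16 ± 0.16), and Ccne1 fell by 0.88. All 12 calls were lost after quantile normalization, while 2 were kept in a fit of the compared groups alone, 3 with a doubled allowance (chosen after seeing the data) and 7 with array weights. The count was 7 without cord day 3 replicate 1 and 15 without cord day 3 replicate 3. Calls of Plk1 and Mcm3 are lost without day 3 replicate 1 or 2 or day 7 replicate 1 or 2, and that of Kif20a without day 3 replicate 1 or 2 (adjusted p from 0.0513 to 0.208). Against day 1, 38 genes rose and 1 (Tk1) fell on day 3, where 8.15% of all genes rose and 7.3% fell. On day 7, 43 rose and 2 (Ccne1 and Cdkn1a) fell against day 1, where 15% rose and 16.1% fell, and Cdkn1a loses that call without any of 6 single arrays (day 1 replicates 2 to 4 and day 7 replicates 1 to 3, adjusted p from 0.0576 to 0.138).

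The other mitosis list moved with these genes, with 47 of 59 rising on day 3 and 55 of 59 on day 7 in the cord, and 0 falling by limma. Of all genes tested, 11.2% rose and 11.2% fell on day 3, and 16.2% rose and 18.3% fell on day 7. Kif15, a spindle kinesin, rose by 2.29 ± 0.27 on day 3 and 2.87 ± 0.27 on day 7, and Cenpa, the centromere histone, by 2.90 ± 0.24 on day 7. Of 40 other S phase genes 20 rose and 1 fell on each day. Asf1b, a histone chaperone, rose by 2.18 ± 0.18 on day 3, and Cdc7, a kinase that fires origins, fell by 0.52 on day 3 and 0.83 on day 7 (limma adjusted p = 0.0338 and 0.000158). Of 13 genes of G1 control 6 rose and 0 fell on day 3, and 7 rose and 1 fell on day 7, among them Myc (2.21 ± 0.31 on day 3) and Rbl2, a pocket protein of quiescence (-0.59 ± 0.11 on day 7). Of 18 p53 and inhibitor genes 7 rose and 1 fell on day 3, and 8 rose and 1 fell on day 7, with Zmat3, a p53 target, at -0.57 and -0.65.

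Markers of several cell types also changed in the later cord, though not in every array, where 11.2% of all genes rose on day 3 and 16.2% on day 7, and 18.3% fell on day 7. Monocyte and macrophage markers rose in 11 of 12 genes on day 3 (median 1.98) and 10 of 12 on day 7 (median 2.49). Their array medians were 0.80 to 2.49 on day 3 and 2.19 to 2.90 on day 7, and -0.48 to 0.42 in control cord. Microglia markers rose in 5 of 11 on day 3 (median 0.77) and 7 of 11 on day 7 (median 1.76). Their array medians were -0.75 to 1.30 on day 3, 1.47 to 1.78 on day 7 and -0.21 to 0.012 in control cord. Cord day 3 replicate 1, at -0.75, lay below all controls, while its mitosis median of 0.65 lay above them. Fibroblast markers rose in 6 of 10 on day 3 (median 1.64) and 9 of 10 on day 7 (median 3.60), and neuron markers fell in 8 of 10 on day 7 (median -0.89). Fibroblast array medians were 1.16 to 2.23 on day 3, which overlapped control cord (-0.65 to 1.40), and 2.88 to 4.18 on day 7. Endothelial markers rose in 5 of 10 on each day (medians 0.69 and 0.49). Astrocyte array medians were -0.62 to 0.68 on day 3 and 0.33 to 0.49 on day 7, against -0.24 to 0.135 in control cord. Those of oligodendrocyte precursors were -1.16 to 0.65 and 0.14 to 0.55, against 0.23 to 0.61. Those of neural progenitors were -0.009 to 0.095 and 0.235 to 0.49, against -0.14 to 0.01. Lymphocyte markers had 0 of 9 calls on either day by limma. Which of these cells carried the cycle transcripts was not tested.

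In the injured cerebrum 31 of the 50 genes rose on day 1 and 0 fell, where 8.91% of all genes rose and 8.22% fell. On day 3 it was 29 and 0, where 4.06% rose and 3.58% fell, and on day 7 it was 17 and 0, where 5.23% rose and 2.84% fell. At an unadjusted p under 0.05, 0, 0 and 1 genes fell. Mitosis genes gave 19, 19 and 10 of the rises on days 1, 3 and 7, with medians of 0.78, 0.89 and 0.58. S phase genes gave 11, 10 and 6, with medians of 0.53, 0.55 and 0.43, and the median over all genes ran from -0.054 to -0.014. Cdkn2c gave the remaining rise on days 1 and 7 (0.90 ± 0.16 and 0.72 ± 0.16), with 0.61 ± 0.16 on day 3 (limma adjusted p = 0.0501), and its day 7 call is lost without cerebral control 3 or day 7 replicate 2 (0.0751 and 0.0878).

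Mki67 stood at 0.03, -0.025, -0.016 and -0.095 in control cerebrum, 3.35, 3.65, 3.12 and 2.29 on day 1, 3.25, 2.70, 2.74 and 3.16 on day 3, and 2.83, 2.53, 2.78 and 1.78 on day 7. Every injured array was far above every control, and the days overlapped each other. The differences were 3.13 ± 0.36, 2.99 ± 0.36 and 2.50 ± 0.36 (8.75-fold, 7.94-fold and 5.67-fold, limma adjusted p = 3.74e-07, 1.26e-06 and 1.25e-05). Cdk1 stood at -0.13, -0.51, 0.20 and 0.034 in control cerebrum, 3.29, 2.86, 2.83 and 1.35 on day 1, 3.04, 2.72, 3.17 and 3.32 on day 3, and 2.80, 2.55, 2.05 and 2.33 on day 7. Pbk stood at -0.38, -0.22, -0.36 and 0.067 in control cerebrum, 3.30, 3.11, 3.01 and 1.27 on day 1, 2.89, 3.21, 2.62 and 3.34 on day 3, and 2.24, 1.59, 2.06 and 1.44 on day 7. In both genes replicate 4 was the lowest of the day 1 arrays.

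Top2a stood at 0.16, -0.48, -0.10 and -0.28 in control cerebrum, 1.28, 1.22, 1.11 and 0.45 on day 1, 1.05, 1.29, 1.02 and 1.52 on day 3, and 1.12, 0.71, 0.90 and 0.78 on day 7. Ccna2 stood at -0.086, -0.065, -0.033 and 0.033 in control cerebrum, 1.18, 1.01, 0.76 and 0.76 on day 1, 1.27, 0.82, 0.80 and 0.92 on day 3, and 1.13, 1.06, 1.02 and 0.94 on day 7. Both were above all controls in all 12 injured arrays. Top2a rose by 1.19 ± 0.22, 1.40 ± 0.22 and 1.05 ± 0.22, and Ccna2 by 0.96 ± 0.21, 0.99 ± 0.21 and 1.08 ± 0.21 (limma adjusted p from 0.000137 to 0.00462).

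The S phase genes changed less in the cerebrum. E2f8 stood at -0.57, -0.77, -0.48 and -0.21 in control cerebrum, 1.32, 0.86, 0.88 and 0.37 on day 1, 1.15, 1.07, 0.72 and 1.21 on day 3, and 1.05, 0.75, 1.07 and 0.44 on day 7. It rose most of the set, by 1.36 ± 0.26, 1.54 ± 0.26 and 1.33 ± 0.26. Pcna stood at -0.31, -0.12, -0.036 and 0.036 in control cerebrum, 0.74, 0.66, 0.63 and 0.13 on day 1, 0.52, 0.48, 0.52 and 0.60 on day 3, and 0.88, 0.61, 0.52 and 0.72 on day 7. It was above all controls throughout, by 0.65 ± 0.16, 0.64 ± 0.16 and 0.79 ± 0.16 (limma adjusted p = 0.00384, 0.0247 and 0.00361), and its day 3 call is lost without cerebral control 1 or day 3 replicate 4 (adjusted p = 0.0847 and 0.0646). Mcm5 stood at -0.061, -0.19, 0.11 and -0.27 in control cerebrum, 0.43, 0.49, 0.54 and 0.061 on day 1, 0.31, 0.23, 0.52 and 0.40 on day 3, and 0.33, 0.69, -0.11 and -0.25 on day 7. It had no call on any day, with differences of 0.48 ± 0.18, 0.47 ± 0.18 and 0.27 ± 0.18.

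Rrm2 stood at -0.63, -0.17, -0.041 and -0.42 in control cerebrum, 0.62, 0.57, 0.46 and 0.17 on day 1, 0.51, 0.33, 0.13 and 0.50 on day 3, and 0.15, 0.17, 0.24 and 0.31 on day 7. It rose on days 1 and 3 (0.77 ± 0.16 and 0.68 ± 0.16, limma adjusted p = 0.000842 and 0.015) and was at 0.53 ± 0.16 on day 7 (limma adjusted p = 0.0939). The day 3 call is lost without cerebral control 1 or day 3 replicate 4 (adjusted p = 0.0721 and 0.0515). The 6 S phase genes that passed on day 7 were Mcm2, Mcm3, Mcm6, Pcna, Rrm1 and E2f8, of which Mcm2 was the weakest (0.55 ± 0.14, limma adjusted p = 0.0456), lost without cerebral control 1, 2 or 3 or day 7 replicate 1, 2 or 4 (0.0671 to 0.133).

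Ccne1 stood at -0.23, -0.17, 0.031 and 0.13 in control cerebrum, -0.31, -0.13, -0.36 and -0.45 on day 1, -0.55, -0.19, -0.36 and -0.52 on day 3, and -0.56, -0.65, -0.34 and -0.41 on day 7. The day 7 arrays lay below all controls, those of days 1 and 3 overlapped them, and none of the days passed the test (limma adjusted p = 0.188, 0.312 and 0.139). Ccnd2 stood at -0.16, 0.32, 0.57 and 0.70 in control cerebrum, 0.32, 0.44, 0.13 and 0.036 on day 1, 0.057, 0.10, 0.30 and 0.26 on day 3, and 0.049, -0.24, 0.10 and -0.068 on day 7. The groups overlapped and none passed.

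Cdkn1a and Cdkn1b had no call in the cerebrum. Cdkn1a stood at -1.60, -1.21, -0.64 and -1.0 in control cerebrum, -0.97, -1.11, -1.05 and -0.14 on day 1, -0.71, 2.07, -0.45 and -0.11 on day 3, and -0.66, -0.33, -0.74 and -0.52 on day 7. Day 3 replicate 2 was far above the rest, and none of the days passed (differences of 0.29, 1.31 and 0.55, SE 0.43). Cdkn1b stood at 0.047, 0.03, 0.064 and 0.083 in control cerebrum, -0.03, -0.094, -0.092 and -0.14 on day 1, -0.053, 0.19, 0.19 and -0.0092 on day 3, and 0.14, -0.16, -0.042 and -0.12 on day 7. Its day 1 arrays lay below all controls by a small margin, with no call (-0.14 ± 0.12, limma adjusted p = 0.441).

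From day to day the cerebrum gave no calls in tests beyond the allowance for the offset, so small changes could be missed. In day 3 against day 1, day 7 against day 1 and day 7 against day 3, limma called 0 of the 50 genes each, where it called 0.0205%, 4% and 0.395% of all genes. At an unadjusted p under 0.05 there were 2, 7 and 4 genes, of which 1, 0 and 0 were higher and 1, 7 and 4 lower. Several alternative settings, given at the end, did call genes in these comparisons. The medians of the mitosis genes were 0.082, -0.14 and -0.29 in these comparisons.

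Of 59 other mitosis genes 24, 21 and 12 rose in the cerebrum on days 1, 3 and 7, and 0 fell by limma. Of all genes tested, 8.91%, 4.06% and 5.23% rose on these days, and 8.22%, 3.58% and 2.84% fell. Racgap1, which works at the cleavage furrow, rose by 1.46 ± 0.22 on day 1, and Smc4, a condensin subunit, by 1.47 ± 0.23 on day 3. Ncaph, also of condensin, rose by 1.32 ± 0.17 on day 7. Of 40 other S phase genes 6, 3 and 3 rose. Of 13 genes of G1 control 3 rose on each day and 1, E2f5, fell on day 3 (-0.44 ± 0.08), with Rbl1, a pocket protein, at 1.10 ± 0.14 on day 7. Of 18 p53 and inhibitor genes 2, 2 and 1 rose, among them Phlda3 (1.30 ± 0.13 on day 3).

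Beside these rises, microglia markers rose in 6, 5 and 6 of 11 genes in the cerebrum on days 1, 3 and 7 (medians 0.85, 0.85 and 0.93), with array medians of 0.24 to 0.85 after injury and -0.21 to -0.012 in control. Monocyte and macrophage markers rose in 4, 6 and 5 of 12 (medians 0.66, 0.87 and 0.90). Astrocyte markers rose in 8, 3 and 4 of 10 (medians 0.70, 0.63 and 0.75), fibroblast markers in 2, 1 and 6 of 10 (medians 0.79, 0.62 and 1.39), and endothelial markers in 4, 3 and 1 of 10 (medians 0.38, 0.33 and 0.27). The shares of all genes that rose were 8.91%, 4.06% and 5.23% on these days. Markers of oligodendrocyte precursors had 0 of 8 calls by limma on each day. Their part in the cycle gene results was not tested.

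The responses of the tissues were then set against each other as the cord change from control minus the cerebral change from control. The order turned round between day 1 and day 7. Mki67 differed by -3.15 ± 0.50 on day 1, 1.34 ± 0.50 on day 3 and 3.52 ± 0.50 on day 7 (limma adjusted p = 0.000146, 0.0942 and 3.81e-06). The 3 comparisons share their controls.

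On day 1, 13 genes had the lower response in the cord and 2 the higher, where 6.58% and 4.7% of all genes did. Of the 13, 10 were mitosis genes, whose median difference was -0.76. The others were the S phase genes E2f8 (-1.90 ± 0.37), Rrm1 (-1.07 ± 0.30) and Rrm2 (-0.66 ± 0.22). The S phase median was -0.10, against 0.034 over all genes, and none of the 7 licensing genes differed by the test (-0.25 to 0.34). After Mki67, the largest mitosis differences were Pbk (-2.91 ± 0.54, limma adjusted p = 0.000622), Cdk1 (-2.30 ± 0.50, limma adjusted p = 0.00305) and Plk1 (-1.70 ± 0.38, limma adjusted p = 0.00397). Top2a (-1.04) loses its call without any of 7 single arrays and Rrm2 without any of 12, of all 4 groups in both cases (adjusted p from 0.0503 to 0.105). Ccnd2 (0.83 ± 0.23) and Cdkn1a (1.93 ± 0.61) had the higher response in the cord. Ccnd2 loses its call without cerebral control 4 (adjusted p = 0.0506), and Cdkn1a loses it without any of 9 single arrays (adjusted p from 0.062 to 0.0852). Beside this, 6 of 11 microglia markers had the lower response in the cord on day 1 and 0 the higher (median -1.06). The response in the cord was also lower in 4 of 8 markers of oligodendrocyte precursors (median -0.83), 5 of 10 of astrocytes (median -0.47), 3 of 10 of endothelium (median 0.087) and 6 of 8 of muscle (median -1.87), and higher in 2 of 12 of monocytes and macrophages (median 0.35), and their part in the result was not tested.

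On day 3, 15 genes had the higher response in the cord and 0 the lower by limma (0 lower at an unadjusted p under 0.05), where 4.08% and 5.19% of all genes did. Both sets gave 7 of these, with medians of 0.63 for mitosis (-0.22 after quantile normalization on top) and 0.54 for S phase, and Ccnd2 gave the other (0.98 ± 0.23, limma adjusted p = 0.00631). The mitosis genes were Bub1, Cdc20, Cenpe, Kif23, Nusap1, Tpx2 and Cdkn3, and the largest was Bub1 (1.16 ± 0.35, or -0.007 after quantile normalization, which also turned Nusap1 to -0.035 and Tpx2 to -0.25). Bub1 loses its call without any of 7 single arrays (adjusted p from 0.0509 to 0.0826). The S phase genes were Ccne2, Mcm4, Mcm5, Mcm6, Pcna, Cdt1 and Uhrf1, and the largest was Mcm5 (0.91 ± 0.26, limma adjusted p = 0.0208, or 0.0561 without cord day 3 replicate 3 and 0.056 without cord control 3). Pcna differed by 0.86 ± 0.22 (limma adjusted p = 0.011). Mcm4, Mcm6, Cdt1 and Cenpe each lose their calls without any of several single arrays (limma adjusted p from 0.0512 to 0.0896). Over the 15 genes, leaving out single arrays kept 189 calls and lost 51. Pbk had the largest difference of all at 1.60 ± 0.54 but did not pass (limma adjusted p = 0.0555). The count was 23 without cord day 3 replicate 1, 7 without cord day 3 replicate 3, 3 after quantile normalization and 11 with cord controls 3 and 4 alone. Of the marker lists, 6 of 12 monocyte and macrophage markers had the higher response in the cord on day 3 (median 1.26) and 0 of 11 microglia markers had a call by limma. Of 10 astrocyte markers 5 had the lower and 1 the higher response (median -0.68), and 3 of 8 precursor and 4 of 8 muscle markers had the lower one (medians -0.69 and -1.61), and their part in the result was not tested.

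On day 7, 42 genes had the higher response in the cord and 1 the lower, where 13% and 14.6% of all genes did. Mitosis genes gave 25 of the 42, with a median of 1.62, and S phase genes 15, with a median of 0.91, against -0.013 over all genes. The largest mitosis differences after Mki67 were Pbk (3.10 ± 0.54), Cdk1 (2.97 ± 0.50), Plk1 (2.54 ± 0.38) and Cdc20 (2.31 ± 0.26). The largest S phase differences were E2f8 (1.65 ± 0.37, or -0.14 after quantile normalization), Uhrf1 (1.60 ± 0.23) and Mcm5 (1.37 ± 0.26). Ccnd2 (1.48 ± 0.23) and Cdkn2c (1.24 ± 0.23) were also higher, and Ccne1 was lower (-0.56 ± 0.18, limma adjusted p = 0.0204, lost without cord control 1 or cord day 7 replicate 2 at 0.0603 and 0.0536). After quantile normalization the count was 7, the medians were 0.46 for mitosis and 0.33 for S phase, and Ccna2 and Rrm1 changed sign (-0.32 and -0.27). Beside these, 7 of 12 monocyte and macrophage markers (median 1.79), 7 of 10 fibroblast markers (median 2.05) and 3 of 11 microglia markers (median 0.29) had the higher response in the cord on day 7, while 7 of 10 neuron markers (median -0.66) and 4 of 8 muscle markers (median -1.72) had the lower one, and their part in the result was not tested.

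**Figure D4:**
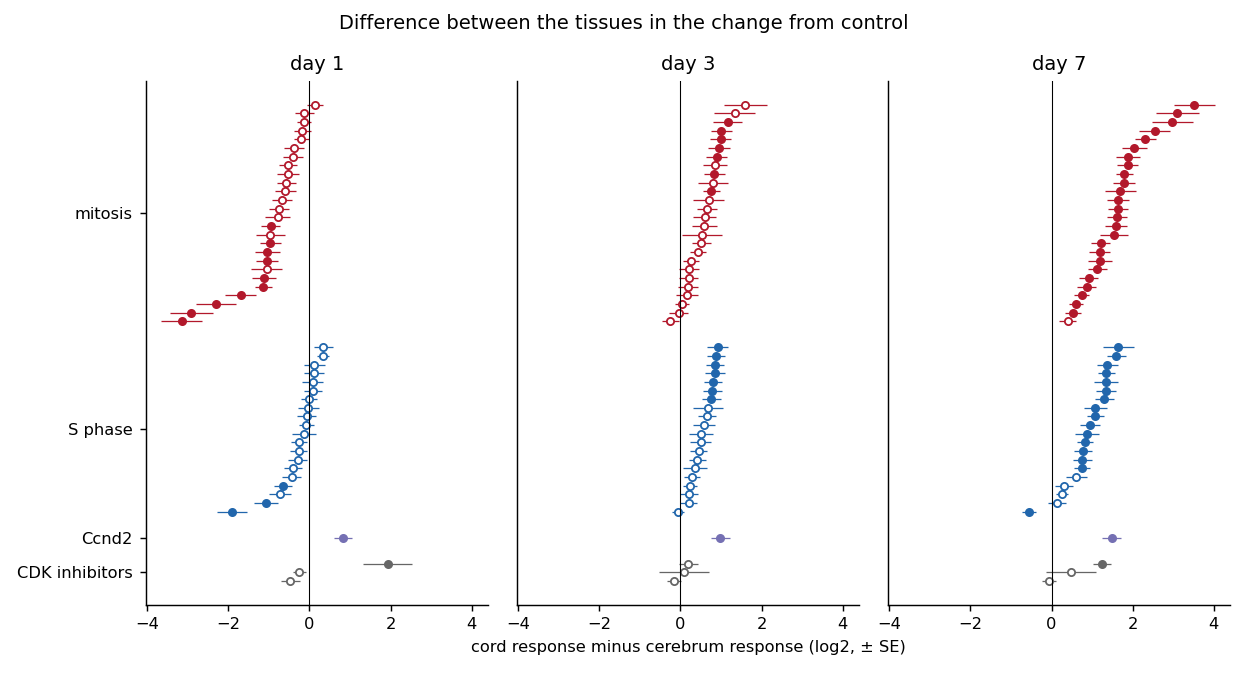
Cord change from control minus cerebral change from control for each of the 50 genes (points, log2, with SE bars) on days 1, 3 and 7, ordered by size within each role, with filled points where limma's adjusted p is under 0.05. Most mitosis genes lie left of 0 on day 1 (median -0.76), all right of it on day 7 (median 1.62), with a day 3 median of 0.63, or -0.22 after quantile normalization.

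The genes called higher were partly shared between the tissues. On day 1, 8 were called in both, which is 57.1% of the 14 in the cord and 25.8% of the 31 in the cerebrum, where the shares over all genes called higher were 23.8% and 42.3%. On day 3 it was 28, or 65.1% of the 43 in the cord and 96.6% of the 29 in the cerebrum, where all genes gave 26.9% and 74.5%. On day 7 it was 17, or 39.5% of the 43 in the cord and 100% of the 17 in the cerebrum, where all genes gave 26.8% and 83.1%. These shares were not tested against each other.

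**Figure D5:**
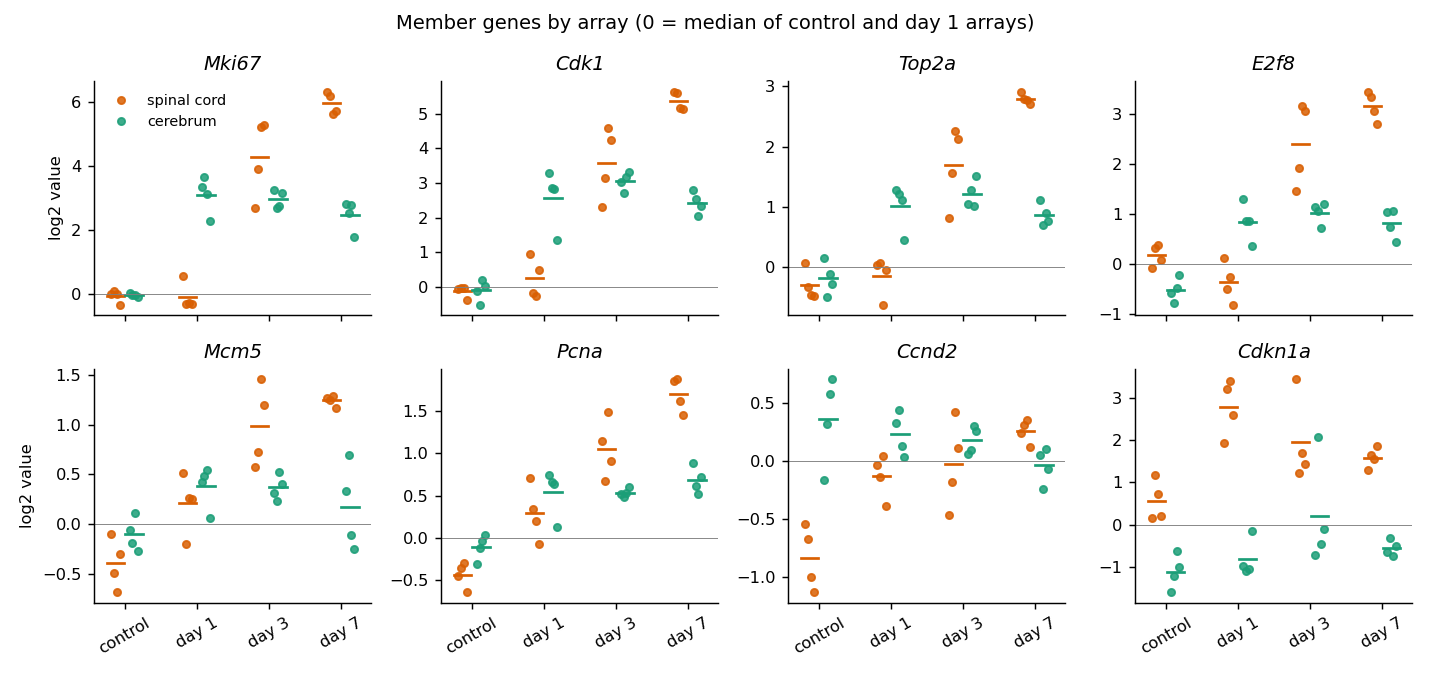
Log2 value of 8 genes in each array (points) with group means (bars), spinal cord in orange and cerebrum in green, from control to day 7. On day 1 Mki67 is -0.31 to 0.57 in cord and 2.29 to 3.65 in cerebrum, Pcna is -0.075 to 0.71 in cord and 0.13 to 0.74 in cerebrum, and Cdkn1a is 1.94 to 3.39 in cord and -1.11 to -0.14 in cerebrum.

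The controls of cord and cerebrum were compared with each other, without knowing whether they had surgery. Cord controls 1 to 3 were high in muscle markers and cord control 2 in fibroblast markers, so the differences need not be of cord tissue alone. Of the 50 genes 6 were higher and 1 lower in cord controls, where 17.2% of all genes were higher and 17.6% lower. With cord controls 3 and 4 alone, a choice made after seeing the data, 3 of these 7 calls were kept. The highest was Cdkn1a (1.67 ± 0.43, limma adjusted p = 0.00272), with values of 0.14 to 1.17 in cord and -1.60 to -0.64 in cerebral controls. The others were Bub1b (0.47), Ccne1 (0.34), Mcm2 (0.39), Pola1 (0.60) and E2f8 (0.69), and all but Pola1 of these 5 lose their calls without any of 4 or more single control arrays (adjusted p from 0.0506 to 0.169). Ccnd2 was lower in cord controls (-1.19 ± 0.16, limma adjusted p = 5.78e-07), at -1.13 to -0.54 against -0.16 to 0.70 in cerebral controls. On day 7 Ccnd2 was 0.12 to 0.35 in cord and -0.24 to 0.10 in cerebrum, so its order was the opposite of that in the controls. The mitosis median in controls was 0.002, and Mki67 (-0.029 ± 0.36) and Cdk1 (-0.021 ± 0.35) had no call.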

How the data were processed

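RNA of 32 samples was hybridised to arrays. Per the labels, RNA from frozen tissue was prepared with TRIzol and 10 ng of it received a biotin label. The values deposited by the authors are log2 values, read as such since their log base, summarisation, software and build are not named by the labels or headers used here. They run from -5.582 to 8.042, with array medians from -0.0553 to 0.0333.

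The deposited values are centred per probe in 3 parts. The 16 control and day 1 arrays have a median of 0 in 100% of probes. Day 3 and day 7 arrays (8 each) could be matched to a centring with the 8 controls in 86.8% of 5646 probes on day 3 and 86.4% of 5147 on day 7, where other partners gave 68.7% to 70.2%. The offset between parts was solved per probe from this match. It was a single value for 45 of the 50 genes on day 3 and 48 on day 7, and otherwise a range. A change across parts was tested beyond the half-width of the range plus an allowance of 0.135 (day 3) or 0.147 (day 7), the 99.9th percentile of the mismatch. Response differences and comparisons within a part, where the offset drops out, were tested against 0.

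Of 22206 probes 19572 carry 1 symbol (GRCm38.p6), and several probes of a gene were averaged. A single limma fit held 32 arrays, 8 group means and 24 residual degrees of freedom, over 16 comparisons, with Benjamini-Hochberg adjustment over 19505 genes at 0.05. The fit was tested on simulated data. The tools were R 4.3.3, limma 3.58.1, matrixStats 1.5.0, matplotlib 3.10.9, pandas 2.3.3, numpy 2.4.6 and Python 3.11.15.

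The genes and lists were chosen with earlier results of these data known. All 50 genes may be named. Of the other lists the 5 largest rises and 3 largest falls per comparison with control were eligible. Values per array are given for a fixed set of key genes and for the mitosis and the S phase gene with the largest response difference on each day. Alternatives were the values as deposited, an exact offset, quantile normalization on top, array medians set to 0, another probe rule, array weights, robust moderation, a fit of the compared groups alone and leaving out each array. A doubled allowance and smaller sets of arrays were added after seeing the data.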

Additional observations from a re-analysis of the deposited data

Results flagged for a closer look

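Of 128 groups of 4 values tested for an array far from the other 3, 9 stood out, and chance gives about 1 in 20. In cord day 3 replicate 1 mitosis minus S phase was -0.10, against 0.63 to 0.67 in the other arrays, and in cerebrum day 1 replicate 1 it was 0.39, against 0.22 to 0.24. Cord day 1 replicate 1 was high in Mki67 (0.57, others -0.31 to -0.26) and Ccna2 (0.26, others -0.20 to -0.13). Cerebrum day 1 replicate 4 was low in Pbk (1.27, others 3.01 to 3.30) and high in Cdkn1a (-0.14, others -1.11 to -0.97). The other 3 values were Top2a in cord day 1 replicate 3 (-0.61, others -0.05 to 0.07), Cdk1 in cord control 4 (-0.37, others -0.05 to -0.03) and Rrm2 in cord day 7 replicate 2 (1.07, others 1.26 to 1.30).

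The responses of cord and cerebrum differed by limma's test of the difference for these genes, as cord minus cerebrum. On day 1 the values were -3.15 for Mki67, -2.91 for Pbk, -2.30 for Cdk1, -1.04 for Top2a, -1.11 for Ccna2, -0.66 for Rrm2, -1.90 for E2f8, 0.83 for Ccnd2 and 1.93 for Cdkn1a. On day 3 they were 0.91 for Mcm5, 0.86 for Pcna and 0.98 for Ccnd2. On day 7 they were 3.52 for Mki67, 3.10 for Pbk, 2.97 for Cdk1, 2.04 for Top2a, 1.19 for Ccna2 (-0.32 after quantile normalization), -0.56 for Ccne1, 1.37 for Mcm5, 1.35 for Pcna, 0.78 for Rrm2, 1.65 for E2f8 (-0.14 after quantile normalization) and 1.48 for Ccnd2.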

How the results depend on the processing

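Counts below are genes called of the 50, medians are log2, and differences are cord minus cerebrum responses. With the values as deposited, without an offset, the mitosis median was 0.55 and the S phase median 0.44 on cerebrum day 3, the mitosis median was 0.39 on cerebrum day 7 and 2.02 on cord day 7, and 5 genes were called in cerebrum day 7 against day 1 and 28 in cord day 7 against day 3. With the offset taken as exact, so tested against 0, 27 were called on cerebrum day 7, 4 in cerebrum day 7 against day 1, 4 against day 3, and 26 in cord day 7 against day 3. Quantile normalization on top gave mitosis and S phase medians of 1.13 and 0.72 on cerebrum day 1, 1.36 and 0.77 on cerebrum day 3, 1.17 and 0.86 on cord day 7, -1.15 and -0.28 in the day 1 difference, and 0.46 and 0.33 in the day 7 difference, and a mitosis median of -0.22 in the day 3 difference. It called 27, 3 and 7 genes in the differences of days 1, 3 and 7, 1, 9 and 5 in the cerebrum for day 3 against day 1, day 7 against day 1 and day 7 against day 3, and 23 and 0 in the cord for day 3 against day 1 and day 7 against day 3. It turned Bub1 (-0.007), Nusap1 (-0.035) and Tpx2 (-0.25) in the day 3 difference and Ccna2 (-0.32), Rrm1 (-0.27) and E2f8 (-0.14) in the day 7 difference. The cause was not tested. Array weights gave 23 in the day 3 difference, 4 in cerebrum day 7 against day 1 and 7 in cord day 7 against day 3. A fit of the compared groups alone, with fewer samples, gave 5 in the day 3 difference, 3 and 1 in cerebrum day 7 against day 1 and day 3, and 2 in cord day 7 against day 3. Of the alternatives chosen after seeing the data, a doubled allowance gave 17 on cerebrum day 3 and 3 in cord day 7 against day 3, and cord controls 3 and 4 alone gave 4 between controls. Cerebral controls 3 and 4 alone gave 10 on cerebrum day 7 and 2 between controls, and cerebral controls 1 and 2 alone gave 11 on cerebrum day 7, 9 in the day 1 difference and 4 in the day 3 difference. Array medians set to 0, robust moderation and the other probe rule moved no count or median past its limit. Leaving out each array gave 7 to 23 in the day 3 difference, 3 to 7 between controls, 0 to 1 in cerebrum day 7 against day 1 and 7 to 15 in cord day 7 against day 3. Over the single genes called, leaving out an array kept 3149 calls, lost 283 and reversed 0, and the other alternatives kept 3432, lost 321 and reversed 6. No paired analysis was possible because replicate numbers follow the order of deposit and pair no samples. The number of arrays limits the precision, and brightness over background was not used here.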
